A study of Saccharomyces cerevisiae with 6 samples.

Results

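Trehalose metabolism and UDP-glucose supply were followed through 10 genes of the yeast Saccharomyces cerevisiae, out of 6256 gene probes on the array. They were chosen by the systematic name of the probe, and each gene had 1 probe, printed in 7 spots. TPS1 (YBR126C), TPS2 (YDR074W), TPS3 (YMR261C) and TSL1 (YML100W) encode the trehalose synthase complex. NTH1 (YDR001C), NTH2 (YBR001C) and ATH1 (YPR026W) encode the trehalases, and UGP1 (YKL035W), PGM1 (YKL127W) and PGM2 (YMR105C) encode the enzymes that make UDP-glucose. Messenger RNA was compared between wild-type BY4741, a haploid laboratory strain, and BY4741 lacking PHO80, with 3 samples of each. Both were sampled at 6 h of fermentation in 80 g/l xylose, and each sample was labelled with Cy3 and hybridised to its own Agilent array in 1 colour.

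Trehalose is a disaccharide of glucose that yeast stores and uses to protect membranes and proteins under stress. Phosphoglucomutase turns glucose 6-phosphate into glucose 1-phosphate, and UDP-glucose pyrophosphorylase (Ugp1) joins that to UTP to give UDP-glucose. Tps1 then links UDP-glucose to glucose 6-phosphate, Tps2 removes the phosphate, and the trehalases split the finished sugar back to glucose. UDP-glucose also feeds glycogen and the cell wall glucans. PHO80 encodes the cyclin that directs the kinase Pho85 to the transcription factor Pho4 in the phosphate pathway, and Pho85 is also known to act on UGP1 expression and on glycogen and stress signalling.

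The arrays held to their strain labels for PHO80, which read -2.93, -2.83 and -2.86 in wild type (log2 signal minus that of the 75th percentile on the same array). On the deletion arrays it never rose well above background. It was at least 27.4-fold lower, taking the dimmest signal well above background of each array as a floor. The limma fit, made without that floor, gave adjusted p = 0.00153. HIS3, LEU2 and MET17, which BY4741 lacks, were not well above background on any array, whereas URA3, which it also lacks, was bright on all of them (3.74 to 3.79 in wild type, against 5.55 to 6.11 without PHO80). The labels mention no plasmid or marker. The 75th percentile of the signal ran from 2404 to 5011, and each array detected 92.0% to 94.6% of probes well above background. In both strains arrays 1 and 3 differed by less than spot noise: the median over probes of their squared difference divided by the spot variance was 0.434 for wild type, against 0.396 for the deletion, and noise alone gives 0.485. They were counted as 1 sample, leaving 2 samples per strain. Array 2 of the deletion strain was far from the other two (87.5 and 93.7), while array 2 of the wild type was near spot noise (0.634 and 0.677). The labels do not say whether replicates came from separate cultures, so p-values measure only the spread between these samples. Each strain was on its own slide with its own scan, so an effect of the slide and one of the strain cannot be told apart. The deletion arrays also read far lower for genes of mitochondrial DNA such as COX1, COB and OLI1 (log2 fold change -12.3, -14.2 and -14.8), though not for AI3 (-0.19). Effects of losing that RNA and of losing PHO80 cannot be told apart.

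All 10 genes were higher in the deletion strain, by 1.49-fold (TPS1) to 3.96-fold (UGP1). All 10 were well above background on every array, and on each of them the 3 deletion arrays lay above the 3 wild-type arrays. Genes of synthesis, of breakdown and of UDP-glucose supply all rose: 4 of 4, 3 of 3 and 3 of 3 passed the test (limma, Benjamini-Hochberg adjusted p under 0.05 over 5863 tested genes). Over all tested genes 19.2% were called higher and 34.6% lower, and on 31.1% the deletion arrays all lay above the wild-type arrays. UGP1, TSL1 and NTH2 rose at least 2-fold, which 11.2% of tested genes did. The median log2 fold change of the 10 genes was 0.75, against -0.28 over all tested genes. That background shift depends on scaling: it was 0.01 with median scaling and 0.03 with quantile normalization. Array signals are relative to each array's own brightness, so a change in total RNA would not be seen. In these bulk samples more cells expressing a gene and more of its RNA per cell cannot be told apart.

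**Figure D1:**
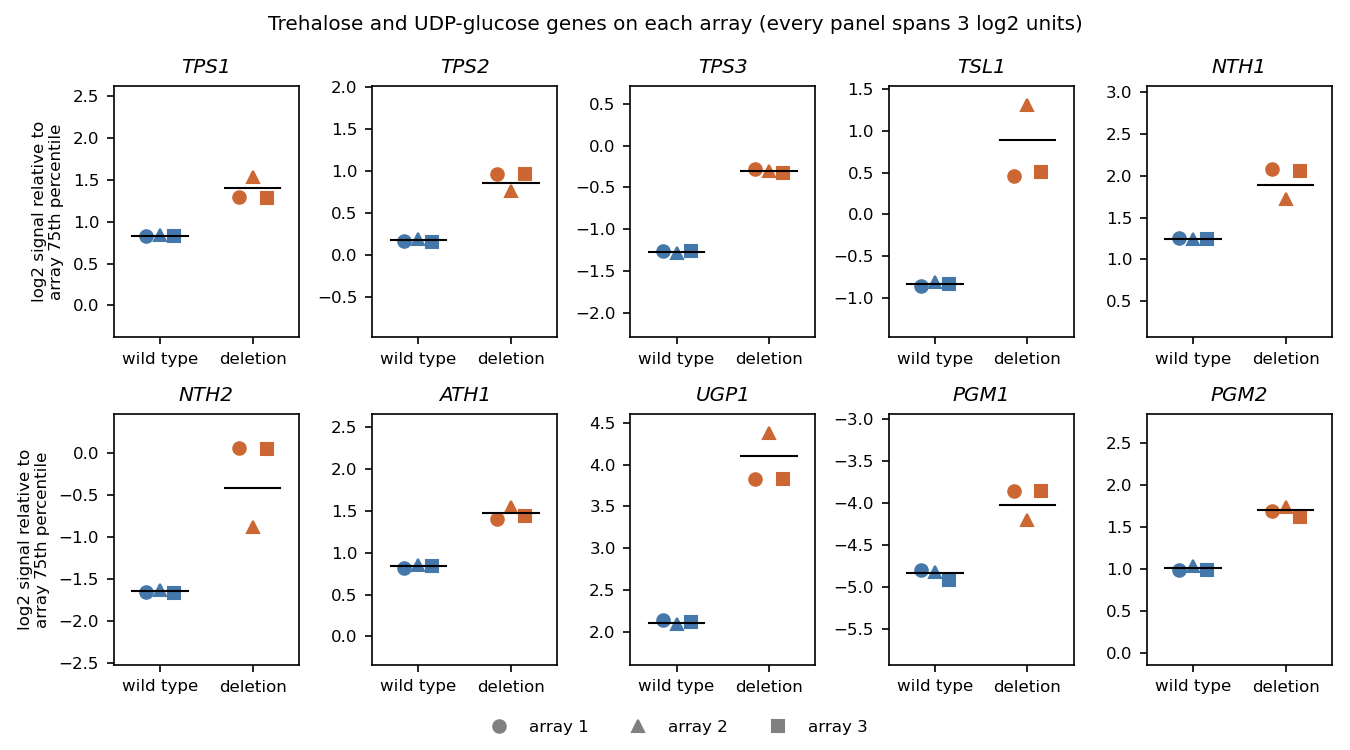
Level of each of the 10 genes on each array, as log2 signal minus that of the 75th percentile on the same array (vertical axis, 3 log2 units in every panel), for the 3 wild-type arrays (blue) and the 3 deletion arrays (orange). Marker shapes give the array number and bars the strain mean over 2 samples. The deletion arrays lie above the wild-type arrays in every panel, and deletion array 2 stands apart from arrays 1 and 3 for TSL1, NTH2 and UGP1.

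The number of calls rested on wild-type array 2, since that array gives the wild type its only spread. TSL1, NTH2 and UGP1 had the largest rises of the 10 and also the widest spans across the deletion arrays. With the 3 wild-type arrays counted as 1 sample, all the spread in the fit comes from the deletion samples. The wild type is assumed to vary like them, and limma draws each gene's spread toward that of other genes. A gene's own gap between deletion samples thus weighs less. Then TSL1, NTH2 and UGP1 were called (adjusted p = 0.00105, 0.0286 and 0.00107, limma) and the other 7 were not, with adjusted p from 0.0965 (TPS3) to 0.352 (TPS1). In that fit 8.85% of all tested genes were called higher, and the fold changes of the 10 genes moved by at most 0.01 on the log2 scale. Leaving out wild-type array 2 gave the same 3 calls, beside 8.92% of all genes.

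Among the enzymes of trehalose synthesis, TPS1, the trehalose-6-phosphate synthase gene, read 0.83, 0.84 and 0.83 on the wild-type arrays and 1.29, 1.53 and 1.28 on the deletion arrays. TPS2, the phosphatase gene, read 0.17, 0.19 and 0.15 in wild type, against 0.96, 0.76 and 0.96 in the deletion strain. In both genes the wild-type arrays were nearly level, and deletion array 2 was the one that differed, upward for TPS1 and downward for TPS2. TPS1 rose by 0.57 ± 0.13 (log2 fold change ± SE, n = 2 samples per strain, adjusted p = 0.0295), the smallest rise of the 10. TPS2 rose by 0.69 ± 0.13 (adjusted p = 0.0161).

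The genes of the regulatory subunits TSL1 and TPS3, which are paralogs, had larger fitted rises than those of the catalytic subunits, a difference that was not tested. TSL1 read -0.86, -0.81 and -0.83 on the wild-type arrays and 0.46, 1.31 and 0.51 on the deletion arrays. Every deletion array was more than 1 log2 unit above every wild-type array, and array 2 was the highest by a wide margin. TSL1 rose by 1.72 ± 0.31, or 3.30-fold (adjusted p = 0.0156). Its 95% interval ran from 0.85 to 2.59, and arrays 1 and 3 alone gave a difference of 1.31 against 2.13 on array 2. TPS3 read -1.26, -1.29 and -1.26 in wild type, against -0.28, -0.30 and -0.33 in the deletion strain. TPS3 was the steadiest of the 10 genes across the deletion arrays, which spanned 0.05 log2 units, and it rose by 0.97 ± 0.10 (adjusted p = 0.00537).

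The trehalase genes rose as well. NTH1, which encodes the main neutral trehalase of the cytosol, read 1.25, 1.25 and 1.24 on the wild-type arrays and 2.08, 1.73 and 2.05 on the deletion arrays. Deletion array 2 was lower than arrays 1 and 3 but still above all wild-type arrays. The rise was 0.65 ± 0.16 (adjusted p = 0.033), and with quantile normalization it was 0.49 and not called (adjusted p = 0.0895).

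NTH2, its paralog, read -1.65, -1.63 and -1.67 in wild type, against 0.06, -0.88 and 0.05 in the deletion strain. Here deletion array 2 lay 0.93 below the mean of arrays 1 and 3, the largest gap of the 10 genes. The fitted rise of 1.24 ± 0.35 (2.36-fold, adjusted p = 0.0468) thus averages a difference of 1.70 on arrays 1 and 3 and one of 0.77 on array 2. Its 95% interval, from 0.26 to 2.21, was the widest of the 10.

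ATH1, the acid trehalase gene needed for growth on external trehalose, read 0.81, 0.85 and 0.85 in wild type, against 1.40, 1.54 and 1.44 in the deletion strain. All 3 deletion arrays were close together, with array 2 the highest. ATH1 rose by 0.64 ± 0.11 (adjusted p = 0.0145).

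UGP1, which encodes the pyrophosphorylase that makes UDP-glucose, had the largest fitted rise of the 10 under the main scaling, whereas with quantile normalization TSL1 (1.76) and PGM1 (1.74) came before it (1.62). Its processed signal was 12195, 12242 and 10862 on the wild-type arrays and 47608, 50021 and 70886 on the deletion arrays. Scaled to each array, it read 2.14, 2.10 and 2.12 in wild type, against 3.82, 4.38 and 3.82 in the deletion strain. Deletion array 2 was the highest, and the lowest deletion array was still more than 1 log2 unit above wild type. UGP1 rose by 1.99 ± 0.23 (adjusted p = 0.00589), with a 95% interval from 1.35 to 2.63. The lower end of that interval lay above the upper ends for 7 of the other genes, while those of TSL1 and NTH2 reached above it. Among all 5863 tested genes UGP1 ranked 150 from the top by log2 fold change and TSL1 ranked 221, whereas TPS1 ranked 1195.

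The phosphoglucomutase genes had smaller fitted rises than UGP1, a difference that was not tested and that turned for PGM1 with quantile normalization (1.74 against 1.62 for UGP1). PGM2, the gene of the major isoform, read 0.98, 1.03 and 0.99 on the wild-type arrays and 1.70, 1.74 and 1.62 on the deletion arrays. The arrays of each strain were close together, spanning 0.05 log2 units in wild type, against 0.11 in the deletion strain. The rise was 0.69 ± 0.11 (adjusted p = 0.011).

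PGM1, the gene of the minor isoform, had a dim probe, with a processed signal of 82.6 to 101 in wild type, against 131 to 347 in the deletion strain. It read -4.80, -4.82 and -4.91 in wild type, against -3.85, -4.20 and -3.85 in the deletion strain, array 2 being the lowest of the latter. PGM1 rose by 0.81 ± 0.19 (adjusted p = 0.0284). The size depended on the processing more than for any other of the 10 genes over the alternatives tried: it was 0.55 with normexp background correction and 1.74 with quantile normalization, called in both (adjusted p = 0.0315 and 0.00283).

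**Figure D2:**
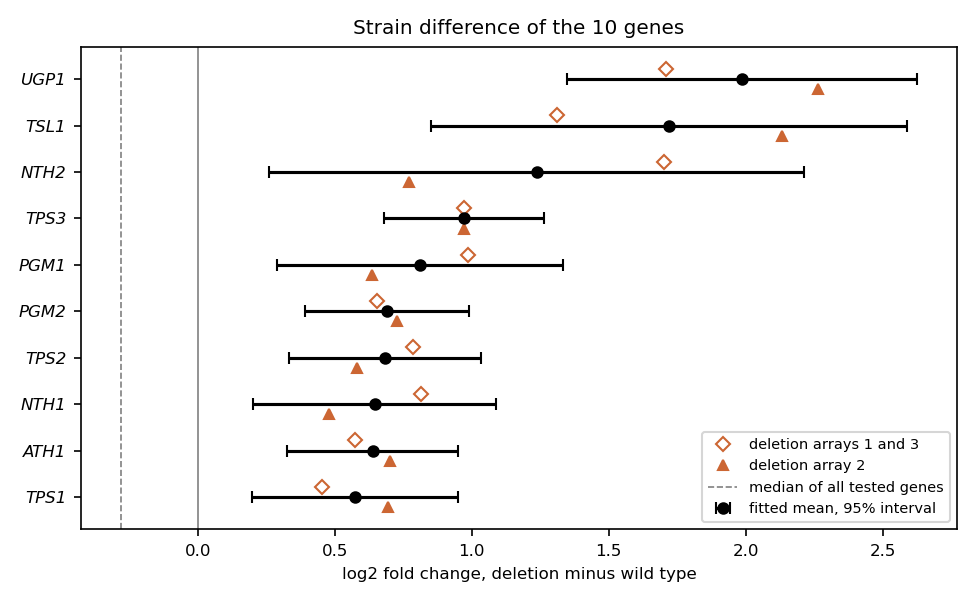
Log2 fold change of the 10 genes, deletion minus wild type (horizontal axis), ordered by size. Black points with bars give the fitted mean and its 95% interval, open diamonds the difference on deletion arrays 1 and 3, and triangles that on deletion array 2. Every point lies above 0 and above the median of all tested genes (-0.28, dashed), and both kinds of deletion sample lie far apart for NTH2 (1.70 and 0.77) and TSL1 (1.31 and 2.13).

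Deletion array 2 did not shift the 10 genes one way. Relative to the mean of deletion arrays 1 and 3 it was higher for TSL1 (0.82), UGP1 (0.56), TPS1 (0.24), ATH1 (0.12) and PGM2 (0.08). It was lower for NTH2 (-0.93), PGM1 (-0.35), NTH1 (-0.34) and TPS2 (-0.20), and level for TPS3 (0.0011). Over all tested genes that gap had a median of 0.02 and an SD of 0.58. The size of the rise was thus least certain for the genes on which array 2 departed most: TSL1, UGP1 and NTH2 spanned more than 0.5 log2 units across the deletion arrays, and the other 7 spanned 0.05 to 0.35. The wild-type arrays spanned at most 0.12 (PGM1) and otherwise at most 0.05. Without deletion array 2 the rises were 1.31 for TSL1, 1.70 for NTH2 and 1.71 for UGP1. The p-values of that fit take their spread from the wild-type arrays, near spot noise, and are not given.

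Each of the 3 pairs of paralogs was compared within arrays, which asks whether one copy changed more than the other. The TSL1 to TPS3 difference was higher than its wild-type mean by 0.29, 1.16 and 0.38 on the 3 deletion arrays, so TSL1 rose more than TPS3 on each, by 0.75 over the 2 samples. The NTH2 to NTH1 difference was higher by 0.88, 0.29 and 0.89, or 0.59 over the 2 samples. For both pairs all deletion arrays lay above all wild-type arrays, which lay between -0.04 and 0.03 of their mean. The PGM2 to PGM1 difference was -0.30, 0.09 and -0.37 relative to wild type, with array 2 on the other side of arrays 1 and 3. With 2 samples per strain the exact two-sided permutation test gave p = 0.333 for TSL1 and TPS3 and for NTH2 and NTH1, the smallest it can give, and p = 1 for PGM2 and PGM1 (adjusted over the 3 pairs, 0.5, 0.5 and 1). On 6 separate arrays it gave 0.1, the smallest possible, 0.1 and 0.4 (adjusted 0.15, 0.15 and 0.4). Neither design can reach 0.05, so these tests cannot decide whether the copies differ. The first change was 0.34 without deletion array 2, and the second was 0.89 without that array and 1.01 with quantile normalization. Paralogs share sequence, and how far a probe binds the other copy was not tested.

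**Figure D3:**
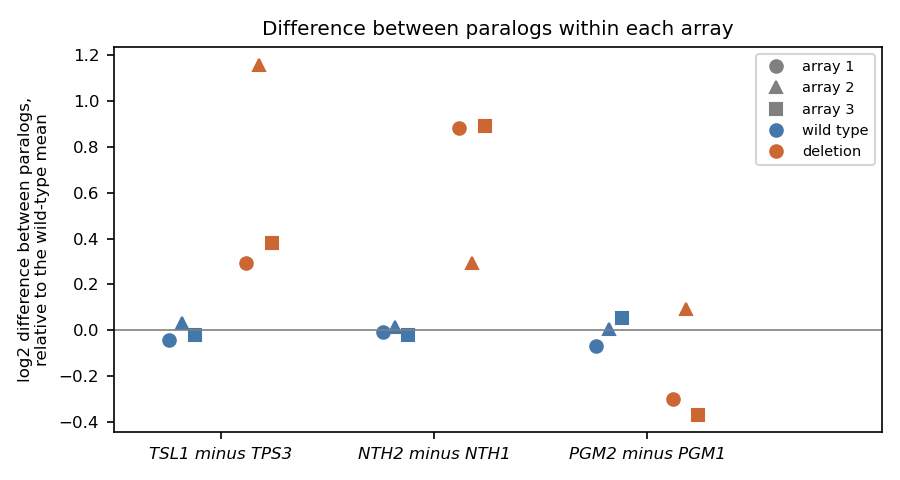
Log2 difference between 2 paralogs within each array, relative to its wild-type mean (vertical axis), for 3 pairs. Blue marks are wild-type arrays, orange marks deletion arrays, and shapes give the array number. The wild-type arrays lie near 0, the deletion arrays lie above them for the TSL1 and NTH2 pairs (0.29 to 1.16 and 0.29 to 0.89), and on both sides for the PGM2 pair.

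The genes around the pathway did not all move the same way. Of 41 such genes, 40 were tested, of which 17 rose and 6 fell, against 19.2% and 34.6% of all tested genes. All 4 genes of hexose phosphorylation, the step that makes glucose 6-phosphate from glucose, rose. With wild type as 1 sample HXK1 and GLK1 lost their calls (adjusted p = 0.239 and 0.0682). HXK2, the main hexokinase gene on glucose, read 2.24, 2.18 and 2.20 in wild type, against 3.70, 4.35 and 3.72 in the deletion strain, and rose by 1.83 ± 0.25 (adjusted p = 0.00848). The glucokinase gene GLK1 rose by 1.20 ± 0.25, its paralog EMI2 by 1.17 ± 0.10 and HXK1 by 0.91 ± 0.26 (adjusted p = 0.0225, 0.0039 and 0.047). HXK1, HXK2 and GLK1 read 0.62 to 0.64 more on array 2 of the deletion strain than on its companions, and EMI2 0.02 more. HXK1 was not called without deletion array 1 (adjusted p = 0.0505).

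Of 10 genes of glycogen, which draws on the same UDP-glucose, 3 were higher, 1 was lower and 6 were not called. Over all tested genes 19.2% were called higher and 34.6% lower. GSY2, the main glycogen synthase gene, rose by 1.35 ± 0.19, GLC8, which encodes a regulator of the phosphatase Glc7, by 1.03 ± 0.13, and the glycogen phosphorylase gene GPH1 by 0.93 ± 0.19 (adjusted p = 0.00884, 0.00677 and 0.0199). GLG2, one of a pair of glycogenin genes that prime the polymer, fell (-0.80 ± 0.16, adjusted p = 0.0197). Its fall was lost with median scaling (-0.51, adjusted p = 0.0878) and was 0.00 with quantile normalization. With wild type as 1 sample the calls of GLC8, GPH1 and GLG2 were lost.

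Of 11 other tested genes that make or use UDP-glucose, or are paralogs of its makers, 2 rose and 3 fell, where 19.2% and 34.6% of all tested genes did. GAL7, the galactose-1-phosphate uridylyltransferase gene, rose by 1.36 ± 0.18 and YHL012W, a paralog of UGP1, by 1.26 ± 0.29 (adjusted p = 0.00742 and 0.0294). The GAL7 probe was dim, with a processed signal of 143 to 175 in wild type, against 418 to 690 in the deletion strain. GAL10, also on this list, was well above background on too few arrays to be tested. FKS3, a gene of the same family as FKS1, was not called (-0.21) but was called higher with quantile normalization (0.75, adjusted p = 0.0144). GSC2, also of that family, was not called (0.05 ± 0.19, adjusted p = 0.846), and its probe was brighter than that of FKS1 on every array. FKS1, which encodes a catalytic subunit of beta-glucan synthase, read 2.06, 2.06 and 2.05 in wild type, against 0.37, 1.06 and 0.38 in the deletion strain, and fell (-1.34 ± 0.26, adjusted p = 0.0191). The paralogs KRE6 and SKN1, which act in glucan branching, fell (-0.68 ± 0.16 and -0.75 ± 0.18, adjusted p = 0.0279 and 0.0333), SKN1 being named after its value was seen. With median scaling neither of these paralogs was called (adjusted p = 0.162 and 0.078), nor with wild type as 1 sample (adjusted p = 0.248 and 0.212), and FKS1 was called in both. PGM3, a more distant member of the phosphoglucomutase family, had a log2 fold change of 0.37 ± 0.12 and was not called (adjusted p = 0.0603).

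Of 4 genes that make or use UTP, the other substrate of Ugp1, 2 rose and 1 fell, where 19.2% and 34.6% of all tested genes did. URA6, the uridylate kinase gene, rose by 1.14 ± 0.12 (adjusted p = 0.00523). YNK1, the nucleoside diphosphate kinase gene, was not called (-0.09 ± 0.50, adjusted p = 0.897). It read 2.90, 2.93 and 2.93 in wild type, against 3.56, 2.16 and 3.48 in the deletion strain. The paralogous CTP synthase genes, whose products consume UTP, went opposite ways: URA8 rose by 2.09 ± 0.11 and URA7 fell (-1.44 ± 0.14, adjusted p = 0.00237 and 0.0046). The fall of URA7 lost its call under quantile normalization (-0.64, adjusted p = 0.051).

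Among 10 genes for regulators of trehalase or of trehalose gene expression and the transporter gene MAL11, 6 rose, 1 fell and 4 were not called. Over all tested genes 19.2% were called higher and 34.6% lower. DCS1, whose product is known to inhibit neutral trehalase, rose by 1.75 ± 0.15, and BMH1, whose product binds and activates phosphorylated Nth1, rose by 1.34 ± 0.18 (adjusted p = 0.00384 and 0.00811). MSN2, which encodes a general stress transcription factor that acts on several of these genes, rose by 1.17 ± 0.18 (adjusted p = 0.0115). RIM15, which encodes a stress and nutrient kinase that is a known substrate of Pho80 and Pho85, fell (-0.71 ± 0.11, adjusted p = 0.0109). With wild type as 1 sample, or without wild-type array 2, fewer of the 40 surrounding genes and of all tested genes were called. The calls lost in both fits were those of HXK1, GLK1, GLC8, GPH1, GLG2, KRE6, SKN1, BMH2, MSN4, MAL11 and RIM15.

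**Figure D4:**
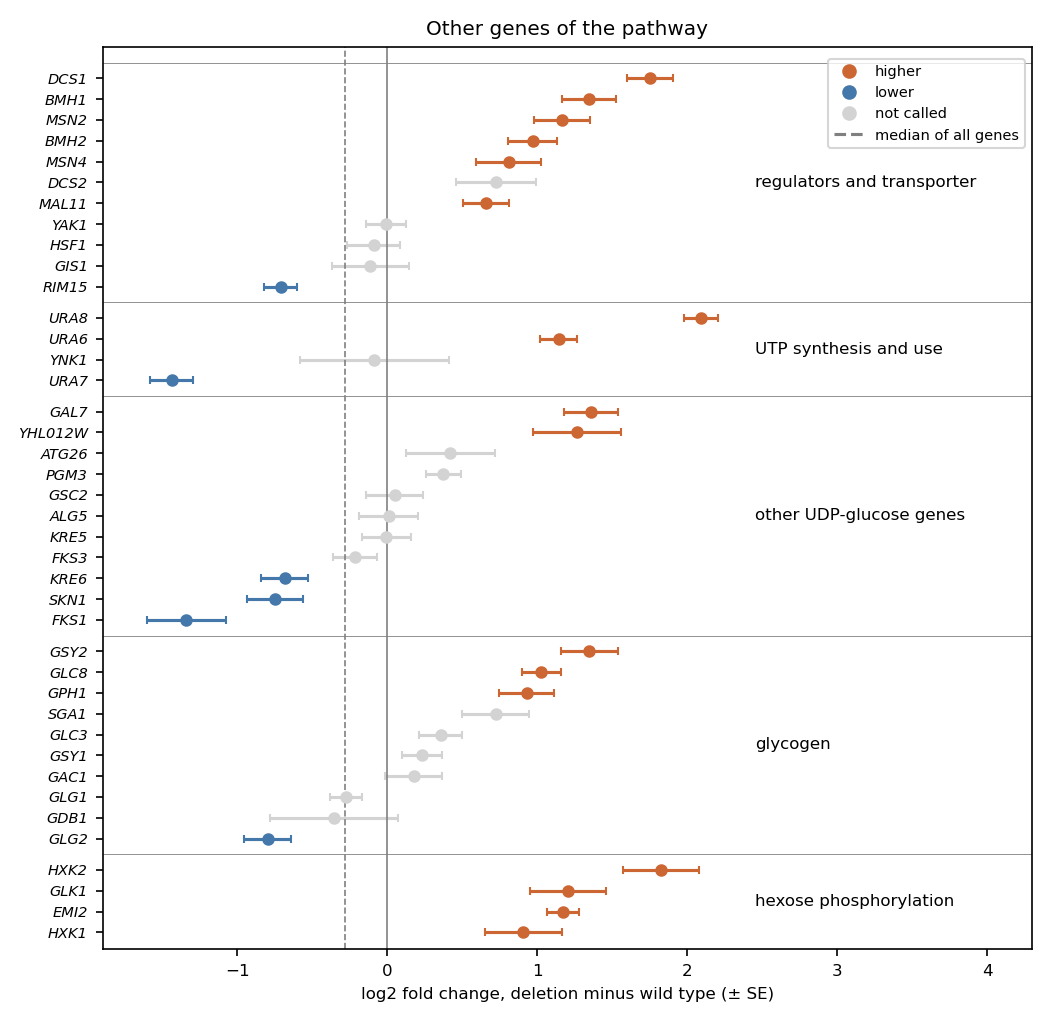
Log2 fold change ± SE, deletion minus wild type, of the 40 tested surrounding genes (horizontal axis), grouped by list and ordered by size. Orange marks genes called higher, blue those called lower and grey those not called. All 4 hexose phosphorylation genes lie above 0, while the other UDP-glucose genes lie on both sides, from FKS1 (-1.34) to GAL7 (1.36).

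The genes with a profile most like that of UGP1, by the root mean square difference of log2 levels over the 6 arrays after subtracting the wild-type mean, were RRG9, GPP2 and MET8 (0.0134, 0.0263 and 0.0331). GPP2 encodes a glycerol phosphatase, MET8 an enzyme of siroheme synthesis and RRG9 a protein needed for the mitochondrial genome. On deletion arrays 1, 2 and 3 UGP1 stood 1.70, 2.26 and 1.70 above its wild-type mean, and GPP2 stood 1.73, 2.21 and 1.68 above its own. With 2 strains and 1 deletion array apart, such profiles hold little more than the fold change and the gap of array 2.

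Across the other settings tried, all 10 genes stayed higher in the deletion strain. Leaving aside the fit without deletion array 2, TSL1, NTH2 and UGP1 were called under all 16 other alternatives. TPS1, TPS2, TPS3, ATH1, PGM1 and PGM2 were called under 14, and NTH1 under 13. All of these lost their calls with wild type as 1 sample and without wild-type array 2. The tallies do not count independent checks. Leaving out array 1 or 3 of a strain keeps its averaged companion, within spot noise of it, and the value table tracks the same signal. Relative to the median of all genes the rise was 2.27 for UGP1 and 0.85 for TPS1, and with quantile normalization 1.59 and 0.42.

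**Figure D5:**
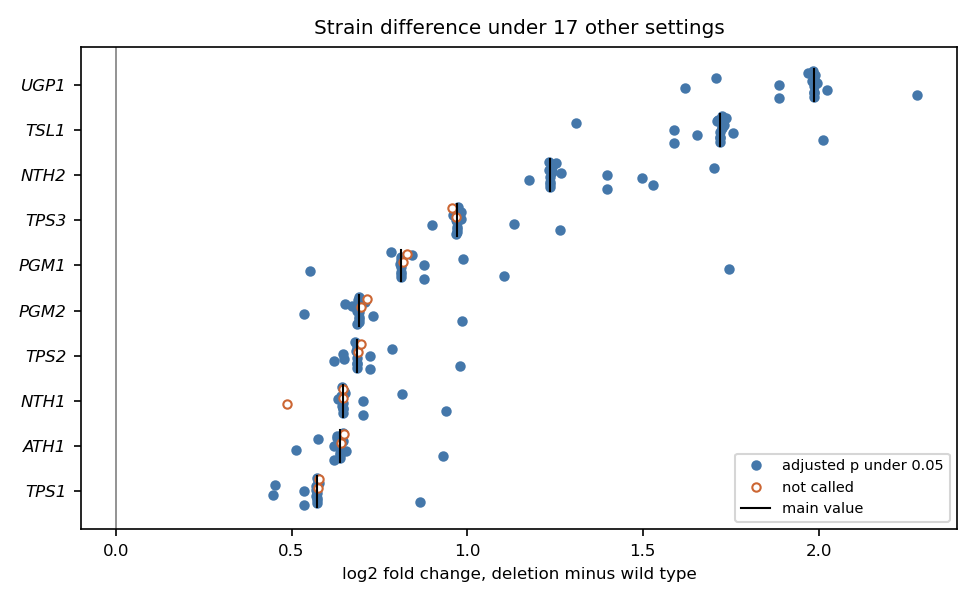
Log2 fold change of the 10 genes, deletion minus wild type (horizontal axis), under 17 other settings. Filled points were called (adjusted p under 0.05), open points were not (calls without deletion array 2 rest on wild-type spread alone), and black bars give the main value. No point lies below 0, and PGM1 has the widest range (0.55 to 1.74).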

How the data were processed

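The members and gene lists were chosen with earlier results of these data known. The deposited spot intensity is linear and came from Agilent Feature Extraction 10.1.1.1, per the file headers. Its background was subtracted within each array, with no scaling between arrays. The authors' value table gives an intensity for each probe. Its scale, centring and direction are unstated, and it tracked the scanner signal (r of log2 values at least 0.997, column medians 746.5 to 1670).

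Control and outlier spots were dropped (1.12% to 1.88%). The log2 signal minus the log2 75th percentile of the array was averaged by probe, and genes well above background (over 0.5 of spots) on 3 or more of 6 arrays were tested. RefSeq (assembly R64) named 5756 probes, and 500 kept their systematic name. The sources used here name no genome build, so no coordinates are printed. Promoter and protein sequences were not used here. The test was limma 3.58.1 in R 4.3.3 (eBayes, intensity trend, 2 residual and 1.93 prior degrees of freedom). It was also run on simulated data, with independent samples and planted changes larger than those of the 10 genes. That run does not check the calls given here. The rule named the 10 members, PHO80, the 4 strain markers, up to 4 called genes per list by p, and the 3 nearest UGP1. COX1, COB, OLI1, AI3, SKN1, FKS3, GSC2, GAL10, PGM3, YNK1, BMH2, MSN4 and MAL11 were named outside it after their values were seen. Normexp used the median spot signal, a column chosen after seeing the files. Same-numbered arrays of the strains did not deviate together (r = -0.12, -0.08 and 0.01), so numbers do not pair samples. Alternatives covered scaling, background, filter, variance model, sample definition, replicate block, left-out arrays and the value table. Figures used matplotlib 3.10.9.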

Additional observations from a re-analysis of the deposited data

How the results depend on the processing

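The direction of all 10 genes held under all 17 alternatives. Several of these use nearly the same data, so tallies over them do not count independent checks. The count of genes higher stayed at 10 under 14 of them, including the fit without deletion array 2, whose calls rest on wild-type spread near spot noise; it was 9 with quantile normalization, and was 3 with the wild-type arrays as 1 sample. With single arrays left out it ran from 3 (wild-type array 2) to 10, that of the surrounding genes from 10 to 28 higher and 2 to 11 lower, and that of all genes from 523 to 2200 higher and 1122 to 3289 lower, against 1123 and 2029. With wild type as 1 sample, 10 surrounding genes were higher and 2 lower, and 519 and 1130 of all genes. With median scaling 3 surrounding genes were lower, and 50.4% of all calls were higher genes, against 35.6%. With quantile normalization GLG2 turned to 0.00096 and FKS3 to 0.75 (0.0796 with median scaling). The change of the PGM2 to PGM1 difference, -0.12, was -1.21 with quantile normalization and 0.18 with normexp, and -0.33 to -0.09 with single arrays left out. That of NTH2 to NTH1, 0.59, was 1.01 with quantile normalization, and that of TSL1 to TPS3, 0.75, was 0.34 without deletion array 2. The causes were not tested. With the replicate block on 2 samples per strain all 10 genes were called, as with 6 separate arrays with the block, where 1485 of all genes were higher and 2486 lower. The block changed no call of the 10 genes. Same-numbered arrays did not deviate together, so these calls add no support. The fits on 6 separate arrays also count arrays within spot noise of each other as separate samples. PGM1 was the gene closest to background.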
